A study of Mus musculus with 4 samples.

Results

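The 9 genes followed here are sarcomere genes that are high in the embryo, in the heart or after mechanical stress: the actins Actc1 and Acta1, the developmental myosins Myh3, Myh8 and Myl4, and the stress-associated genes Ankrd1, Ankrd2, Csrp3 and Xirp1. These 9 gene names, of 22252 in the count tables, were chosen by name with their levels in the same 4 gastrocnemius libraries already known, above all those of Actc1, so the values below describe them and are not a test. All 4 groups were male mice aged 7 weeks that carried floxed alleles of the glucocorticoid receptor gene Nr3c1 on both chromosomes (GR Flox+/+). Lean GRf/f mice (Cre-/- Lep+/+) and lean GRmKO mice (Cre+/- Lep+/+) were compared with ob/ob GRf/f mice (Cre-/- Lepob/ob) and ob/ob GRmKO mice (Cre+/- Lepob/ob), the last 2 being obese because they lack functional leptin. Cre was driven by Acta1 regulatory sequence and removed exon 3 of Nr3c1 in myofibers only, so other cells of the muscle kept the receptor, and every group including the controls was floxed. RNA of 3 mice was pooled into 1 library per group. There is therefore no replicate, no p-value is given, and every interval below covers counting error only and not the spread between mice.

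Sarcomeres are built from thin filaments of actin and thick filaments of myosin, anchored at Z-discs. Developing muscle first uses cardiac actin and the embryonic and perinatal myosins and replaces them after birth with skeletal actin and adult fast or slow myosins. Denervated, regenerating or overloaded muscle can switch the early genes on again, and stretch-sensitive proteins of the Z-disc and of the elastic titin filament, among them Ankrd1, Ankrd2 and Csrp3, are induced by mechanical load.

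The libraries held 19897754 to 20959781 expected counts. The floor of 3 counts used here for a count of 0 thus equals 0.143 to 0.151 CPM (counts scaled to a library total of 1000000). Nr3c1 was at 125 CPM in the lean GRf/f library and 67.0 CPM in the lean GRmKO library, and at 102 and 39.1 CPM in the ob/ob GRf/f and ob/ob GRmKO libraries, with exons outside the deleted part included in these values. The tissue label was checked against 8 skeletal muscle markers, all of which had counts in every library and which summed to 104313 to 123147 CPM. In bulk RNA of this kind, fewer cells of a type and less RNA per cell cannot be told apart.

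Because the cardiac and skeletal actins are close relatives, their sequences are shown first, to let a reader judge whether reads of one could have been counted as the other. Actc1 (cardiac alpha-actin; chr2:114047282-114053548, minus strand, 7 exons, GRCm38, as are all gene coordinates below) and Acta1 (skeletal alpha-actin; chr8:123891769-123894751, minus strand, 7 exons) both have 1131 coding bases. They differ at 155 of these bases (86.3% identical) and in 150 of 377 codons, and 143 of those codons differ in the third base only, so that the proteins differ at 4 amino acids. The 100 coding bases from 426 to 525, counted from the A of the start codon, are the stretch with the most differences. Capitals mark the 22 bases at which both genes differ:
Actc1: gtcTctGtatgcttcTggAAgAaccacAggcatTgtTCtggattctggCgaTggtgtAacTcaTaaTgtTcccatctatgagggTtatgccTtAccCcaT
Acta1: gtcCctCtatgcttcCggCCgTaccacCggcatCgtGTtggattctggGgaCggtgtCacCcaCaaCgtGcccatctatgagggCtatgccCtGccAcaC
Of 1032 such windows of the coding sequence, as long as 1 read, 0 were identical between Actc1 and Acta1, the fewest differences in a window were 4, and the longest identical run was 29 bases. Over the whole listed transcripts, 0 of the 100-base windows of Actc1, Acta1, Myl4, Ankrd1, Ankrd2, Csrp3 or Xirp1 recurred in another protein-coding gene. For Myh3 the share was 1.15%, all of it with Myh13, and for Myh8 it was 6.61%, shared with Myh2, Myh1, Myh13 and Myh4.

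The promoter stretches below are shown because Actc1 and Acta1, which share a regulatory motif there, differed in behavior, and because Ankrd1 was among the genes with the largest difference between ob/ob and lean muscle. They come from RefSeq (GRCm38.p6, minus strand for all 3 genes), are written 5' to 3', and carry in capitals the CArG box, which serum response factor binds, and the M-CAT motif CATTCC or its complement, which TEAD factors bind:
Actc1, chr2:114052876-114052975, bases -100 to -1 from the start of transcription: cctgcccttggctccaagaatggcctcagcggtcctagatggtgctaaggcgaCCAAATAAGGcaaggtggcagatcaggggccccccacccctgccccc
Acta1, chr8:123894776-123894875, bases -100 to -1: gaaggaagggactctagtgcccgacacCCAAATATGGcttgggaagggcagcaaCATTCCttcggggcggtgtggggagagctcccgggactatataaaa
Ankrd1, chr19:36119945-36120064, bases -220 to -101: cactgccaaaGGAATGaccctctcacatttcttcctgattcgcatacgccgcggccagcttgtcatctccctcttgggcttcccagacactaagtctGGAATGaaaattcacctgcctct
Promoters of 300 bases were found for 8 of the 9 genes and searched on both strands, and no 2 of the motifs overlapped. A CArG box was present in Actc1 and Acta1 and in none of the other promoters of these genes, against 1.63% of 32851 promoters. M-CAT was present in Acta1, 1 copy, and Ankrd1, 2 copies, against 14.7% of promoters. The E-box CANNTG, the site of MyoD and myogenin, was present in Actc1, Acta1, Myh3, Myh8, Ankrd1, Ankrd2 and Csrp3 and is common, being found in 72.3% of promoters. The full glucocorticoid response element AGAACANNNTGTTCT was found in none of the 8 promoters searched and in 3 of the 32851 promoters. The starts of transcription used here are those of RefSeq and differ from the gene starts in the gene coordinates of this text. The stretches of Actc1 and Ankrd1 lie inside those gene coordinates. These are matches of letters in short windows and say nothing about binding.

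The question behind the first comparison is what deletion of the receptor from myofibers does to muscle transcripts. Among the 8 genes with counts in each library, which leaves out Myh3, Actc1 showed the largest genotype difference in both backgrounds. Its level was 827 CPM in the lean GRf/f library, 3413 CPM in the lean GRmKO library, 310 CPM in the ob/ob GRf/f library and 3100 CPM in the ob/ob GRmKO library. Both GRmKO libraries were thus high and close to each other, and the obese control library was the lowest of all. In lean mice Actc1 was 4.13-fold higher in GRmKO than in GRf/f muscle (log2 2.04, 95% counting interval 2.02 to 2.07), rank 24 of 11438 genes that were detected throughout and reached 50 counts in a library compared. In ob/ob mice it was 9.99-fold higher (log2 3.32, interval 3.28 to 3.36), rank 5 of 11212. The genotype difference in ob/ob mice exceeded that in lean mice by 1.28 on the log2 scale (interval 1.23 to 1.32). This gap lay in the controls, where the ob/ob and lean GRf/f libraries differed by a log2 value of -1.41. The obese and lean GRmKO libraries differed by -0.14, in the same direction, which made the gap smaller.

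**Figure D1:**
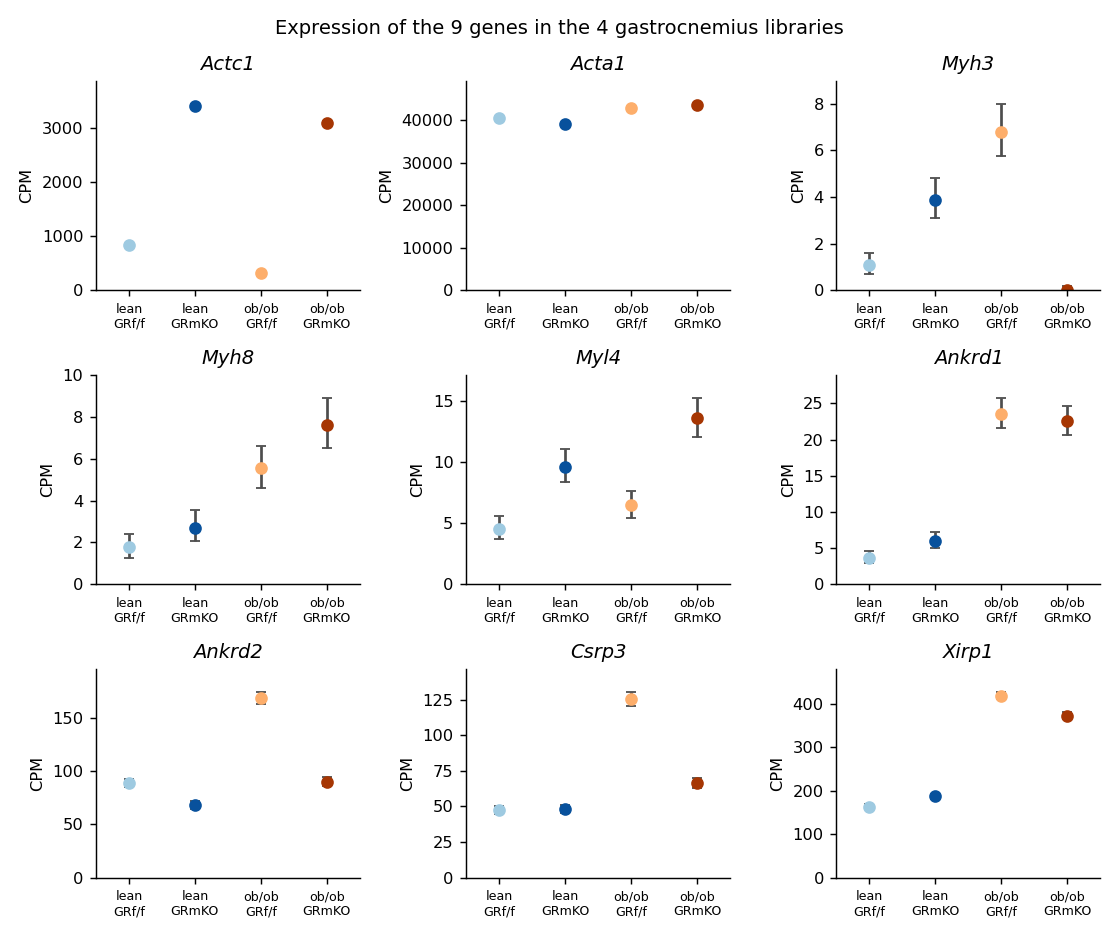
Level of each of the 9 genes in CPM (linear axis from 0 with its own range in each panel) in the 4 libraries, 1 point per library of pooled RNA. Bars are Wilson 95% intervals for counting error only and can be smaller than the points. Actc1 is high in both GRmKO libraries, Ankrd1 and Xirp1 are high in both ob/ob libraries, Ankrd2 and Csrp3 are highest in the ob/ob GRf/f library, and Myh3 has no counts in the ob/ob GRmKO library.

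Acta1, the main actin of adult skeletal muscle, was nearly level. It stood at 40579 CPM in the lean GRf/f library, 39118 CPM in the lean GRmKO library, 43010 CPM in the ob/ob GRf/f library and 43733 CPM in the ob/ob GRmKO library. The genotype log2 fold changes were -0.05 in lean mice and 0.02 in ob/ob mice, beside medians of 0.05 and -0.04 over the 14206 genes detected in each of the 4 libraries. The gain of 2586 CPM in Actc1 in lean mice stood beside a decrease of 1462 CPM in Acta1, whereas in ob/ob mice Actc1 gained 2790 CPM and Acta1 gained 723 CPM. Counted together, both actins differed by a log2 value of 0.04 between the lean genotypes and 0.11 between the ob/ob genotypes, a sum that is mostly Acta1 in every library. Actc1 made up 1.998% of the Actc1 and Acta1 counts in the lean GRf/f library (Wilson 95% interval 1.97% to 2.03%) and 8.02% in the lean GRmKO library (7.97% to 8.08%). The share was 0.716% in the ob/ob GRf/f library (0.699% to 0.734%) and 6.62% in the ob/ob GRmKO library (6.57% to 6.67%). Cardiac actin thus remained the minor sarcomeric actin in every library. Levels can be compared between genes only per transcript length, and on such a scale that sums to 1000000 in a library, the lean GRf/f library held 42528 units of Acta1, 851 of Actc1, 122 of Ankrd2, 82.0 of Csrp3, 42.4 of Xirp1, 7.62 of Myl4, 3.01 of Ankrd1, 0.431 of Myh8 and 0.269 of Myh3. The neighbors Myh8 and Myh3 at the end of this order had overlapping counting intervals. In the lean GRmKO library the units were 40697 of Acta1 and 3486 of Actc1. The other actins did not share its pattern. Actb, a cytoplasmic actin, had genotype log2 fold changes of 0.21 in lean mice and -0.0015 in ob/ob mice, Actg1, the other cytoplasmic actin, 0.20 and -0.11, and Acta2, smooth muscle actin, -0.03 and -0.14.

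**Figure D2:**
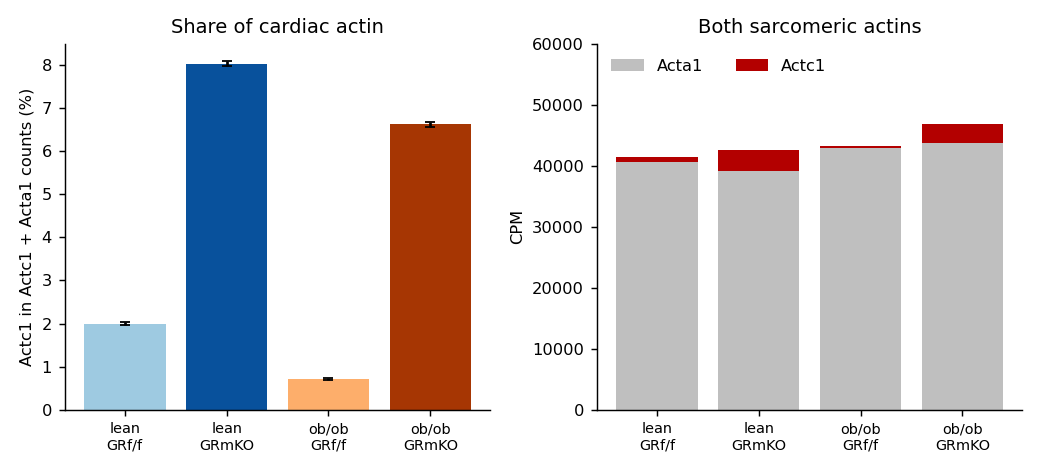
Left, Actc1 counts as a percentage of the summed Actc1 and Acta1 counts in each library, with Wilson 95% intervals for counting error. Right, the CPM of Acta1 (gray) with that of Actc1 stacked on it (red). The share is 8.02% and 6.62% in the GRmKO libraries and 1.998% and 0.716% in the GRf/f libraries, while the stacked height varies little.

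Myl4, the embryonic and atrial myosin light chain (chr11:104550663-104595753), also was higher in both GRmKO libraries, at a far lower level. It was at 4.53 CPM in the lean GRf/f library, 9.58 CPM in the lean GRmKO library, 6.43 CPM in the ob/ob GRf/f library and 13.6 CPM in the ob/ob GRmKO library. The genotype log2 fold changes were 1.08 (interval 0.72 to 1.46) in lean mice and 1.08 (0.77 to 1.38) in ob/ob mice, just past 2-fold, and fell to 0.94 and 0.97 when 1 CPM was added to each value. Unlike Actc1, Myl4 was higher in ob/ob than in lean muscle of either genotype, by log2 values of 0.51 in GRf/f and 0.50 in GRmKO mice. Its share of the counts of the alkali light chains Myl1, Myl3 and Myl4 was 0.0493% in the lean GRf/f library, 0.0959% in the lean GRmKO library, 0.100% in the ob/ob GRf/f library and 0.194% in the ob/ob GRmKO library.

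The developmental myosin heavy chains were near the limit of these libraries. Myh3, the embryonic heavy chain (chr11:67078300-67102291), had 22.1 counts (1.06 CPM) in the lean GRf/f library, 77.2 counts (3.88 CPM) in the lean GRmKO library, 142 counts (6.77 CPM) in the ob/ob GRf/f library and 0 counts in the ob/ob GRmKO library. It was therefore higher in GRmKO than in GRf/f muscle of lean mice, by a log2 value of 1.87 (interval 1.17 to 2.62), and the direction was opposite in ob/ob mice. Against the floor of 3 counts in the ob/ob GRmKO library, the ob/ob GRf/f library was 47.3-fold higher, the lean GRmKO library 27.1-fold higher and the lean GRf/f library 7.43-fold higher. These ratios leave out the counting error of the higher library and take the 0 as a true count, so they are not lower limits. Myh8, the perinatal heavy chain (chr11:67277124-67308634), was at 1.75 CPM in the lean GRf/f library, 2.71 CPM in the lean GRmKO library, 5.55 CPM in the ob/ob GRf/f library and 7.62 CPM in the ob/ob GRmKO library. Both ob/ob libraries lay above both lean libraries, and the genotype log2 fold changes were 0.63 (interval 0.01 to 1.30) in lean mice and 0.46 (0.11 to 0.82) in ob/ob mice. Because these genes sit in the same cluster on chromosome 11 and share sequence with each other and with the abundant adult myosins, the division of reads among them is uncertain. In windows of 31 bases, 10.8% of Myh3 and 32.5% of Myh8 recurred in another protein-coding gene. Myh13, a relative that shares windows with both, was at 0 in the lean GRf/f and ob/ob GRmKO libraries and at 2.98 and 2.64 CPM in the lean GRmKO and ob/ob GRf/f libraries. The sum of Myh3 and Myh8 was 2.81 CPM in the lean GRf/f library, 6.59 CPM in the lean GRmKO library, 12.3 CPM in the ob/ob GRf/f library and 7.62 CPM in the ob/ob GRmKO library. It never exceeded 0.0382% of the counts of the 9 sarcomeric heavy chains, and adult Myh4, the fast IIb chain, alone ran from 20868 to 37872 CPM.

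The stress genes did not follow Actc1. Ankrd1 (chr19:36111961-36120099), a titin-binding ankyrin-repeat protein also called CARP, was at 3.62 CPM in the lean GRf/f library, 5.98 CPM in the lean GRmKO library, 23.6 CPM in the ob/ob GRf/f library and 22.6 CPM in the ob/ob GRmKO library. The ob/ob libraries were alike and far above the lean ones. The genotype log2 fold change was 0.73 (interval 0.30 to 1.16) in lean mice and -0.06 (-0.25 to 0.12) in ob/ob mice, and the difference between these was -0.79 (-1.24 to -0.33). Ankrd2 (chr19:42036000-42045110), a relative found mainly in slow fibers, was at 88.9 CPM in the lean GRf/f library, 68.1 CPM in the lean GRmKO library, 169 CPM in the ob/ob GRf/f library and 90.0 CPM in the ob/ob GRmKO library. It was the only one of the 9 genes lower in GRmKO muscle of both backgrounds with intervals that exclude 0, with log2 fold changes of -0.38 (-0.49 to -0.28) in lean mice and -0.91 (-0.99 to -0.82) in ob/ob mice.

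Csrp3 (chr7:48830398-48848033), the muscle LIM protein of the Z-disc, was at 47.5 CPM in the lean GRf/f library, 48.1 CPM in the lean GRmKO library, 126 CPM in the ob/ob GRf/f library and 66.3 CPM in the ob/ob GRmKO library. The lean libraries were alike, with a log2 fold change of 0.02 (interval -0.11 to 0.15) that took the opposite sign, -0.04, with TMM scaling, and the ob/ob control library stood alone at the top. In ob/ob mice Csrp3 was lower in GRmKO muscle by a log2 value of -0.92 (-1.02 to -0.83), which differed from the lean value by -0.94 (-1.10 to -0.78). Xirp1 (chr9:120013755-120023598), which encodes the actin-binding repeat protein Xin and overlaps Cx3cr1 on the same strand, was at 163 CPM in the lean GRf/f library, 187 CPM in the lean GRmKO library, 419 CPM in the ob/ob GRf/f library and 373 CPM in the ob/ob GRmKO library. Its genotype log2 fold changes were small, 0.20 in lean mice and -0.17 in ob/ob mice. Cx3cr1 held at most 45.0 counts in a library, beside at least 3389 of Xirp1.

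Myh3 had no counts in 1 library, so 8 of the 9 genes could be counted against those 14206 genes. Between the lean genotypes, 2 of the 8 genes, Actc1 and Myl4, were at least 2-fold higher in GRmKO muscle and 0 were at least 2-fold lower, where 4.13% of all genes were at least 2-fold higher and 3.56% at least 2-fold lower. Between the ob/ob genotypes, the same count of 2, again Actc1 and Myl4, was higher and 0 were lower, against 4.05% and 4.99% of all genes. The median log2 fold change of the 8 genes was 0.41 in lean mice and -0.02 in ob/ob mice, beside 0.05 and -0.04 over all genes, so the list as a whole had no common direction by genotype in ob/ob muscle. Since Actc1 had been known to be high when the genes were listed, nothing is read from these counts.

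**Figure D3:**
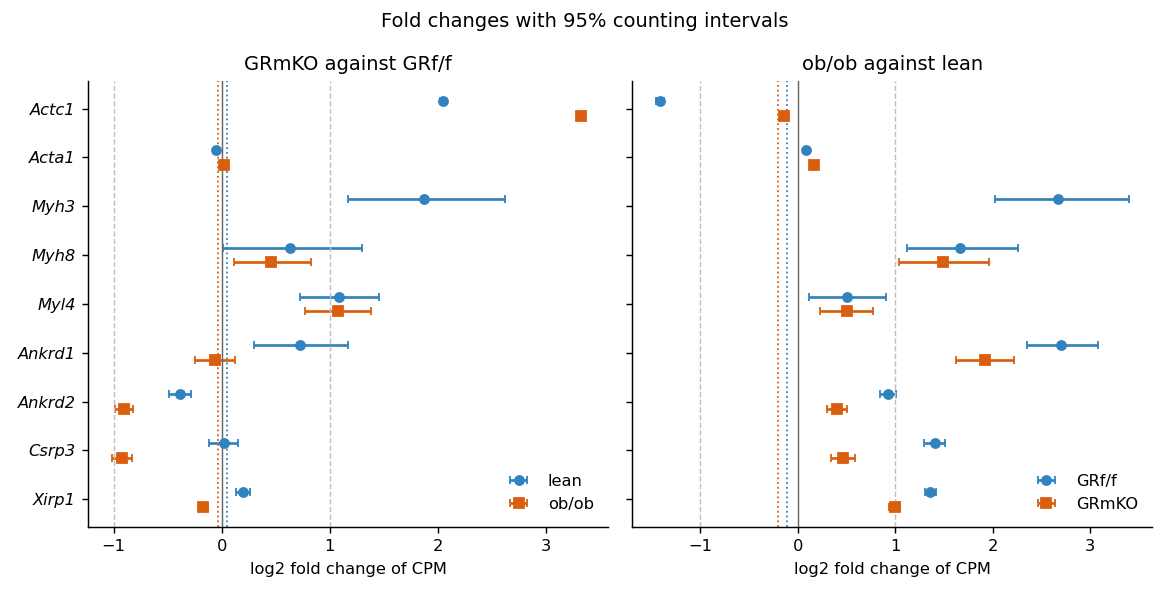
Log2 fold changes of CPM for the 9 genes, GRmKO against GRf/f on the left and ob/ob against lean on the right, with exact 95% intervals for counting error. Dashed lines mark 2-fold, dotted lines the median of 14206 genes in the same comparison, and Myh3 has no point where the ob/ob GRmKO library with 0 counts is involved. Actc1 lies at 2.04 and 3.32 on the left and at -1.41 and -0.14 on the right, and the stress genes lie mostly right of 0 in the right panel.

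The other comparison set ob/ob against lean muscle, first with and then without the receptor in myofibers. It shares its libraries with the genotype comparisons, and the median gene was not at 0 but at -0.11 in GRf/f and -0.21 in GRmKO mice, a shift that TMM scaling reduced to -0.01 and -0.0016. In GRf/f mice, 4 of the 8 genes were at least 2-fold higher in ob/ob muscle, Myh8, Ankrd1, Csrp3 and Xirp1, and 1, Actc1, was at least 2-fold lower, against 3.4% and 6.98% of all genes (4.47% and 5.60% with TMM scaling). In GRmKO mice, 2 were at least 2-fold higher, Myh8 and Ankrd1, and 0 lower, against 3.41% and 10.8% (5.19% and 7.03% with TMM scaling). The median of the 8 genes was 1.14 in GRf/f and 0.48 in GRmKO mice. Myh3, outside these counts, was higher in ob/ob than in lean GRf/f muscle by a log2 value of 2.67 (interval 2.02 to 3.40).

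Ankrd1 had the largest of these fold changes among the 8 genes, 6.52-fold in GRf/f mice (log2 2.70, interval 2.35 to 3.08) and 3.77-fold in GRmKO mice (1.92, 1.62 to 2.22). Myh8 was higher by 1.66 (1.12 to 2.26) and 1.49 (1.04 to 1.97) on the log2 scale. Xirp1 was higher by 1.36 in GRf/f mice and by 0.99 in GRmKO mice, the latter just short of 2-fold and past it, at 1.20, with TMM scaling. Csrp3 was higher by 1.40 (1.30 to 1.51) in GRf/f and by 0.46 (0.34 to 0.58) in GRmKO mice, and Ankrd2 by 0.92 (0.84 to 1.01) and 0.40 (0.30 to 0.50), with 1.03 in GRf/f mice under TMM scaling. Actc1 went the other way in GRf/f mice, at -1.41 (-1.46 to -1.37), and in GRmKO mice was at -0.14, or 0.068 above the median gene, a value whose sign turned with TMM (0.066), DESeq2 (0.076) and upper quartile scaling. Acta1 was at 0.08 and 0.16.

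The genes most like Actc1 over the libraries were sought next. By the distance between log2 CPM values centered on each gene's mean over the 4 libraries, among 10485 genes that reached 50 counts in each library, the 5 genes nearest to Actc1 were Galnt2l (distance 0.87), Sytl2 (1.15), Mfap3 (1.20), Kdm2b (1.20) and Pak1 (1.29). None of the other members was among them, though Myh3 and Myh8 did not reach that minimum and could not be. With a minimum of 200 counts only 1 of these 5, Pak1, was still among the nearest 5. The others had fewer than 200 counts in the ob/ob GRf/f library and could not be, so this does not bear on the stability of the ranking. Galnt2l, the nearest, had genotype log2 fold changes of 1.36 in lean mice and 2.49 in ob/ob mice, both smaller than those of Actc1.

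Markers of other tissues were read beside these values. Of 8 cardiac muscle markers, Myl7, Nppb and Mybpc3 were at 0 in every library, and the summed level of the list was 1.99 CPM in the lean GRf/f library, 2.82 CPM in the lean GRmKO library, 3.73 CPM in the ob/ob GRf/f library and 5.75 CPM in the ob/ob GRmKO library, beside 310 to 3413 CPM of Actc1. The 7 smooth muscle markers summed to 3291 to 3971 CPM, most of it Des, which striated muscle also expresses, and 0 of the 6 tested were 2-fold different in any of the 4 comparisons. Genes that rise in denervated muscle were higher by genotype, as were Actc1 and Myl4. Of 9 such genes, 8 could be tested. All 8 were higher in GRmKO muscle in lean mice and all 8 in ob/ob mice, and 3 and 4 of them were at least 2-fold higher. Of all genes, 4.13% and 4.05% were at least 2-fold higher in these comparisons. Chrna1, the alpha subunit of the acetylcholine receptor, was at 18.4 CPM in the lean GRf/f library, 44.0 CPM in the lean GRmKO library, 32.5 CPM in the ob/ob GRf/f library and 74.3 CPM in the ob/ob GRmKO library. Myog, the myogenic factor myogenin, was at 6.17, 13.6, 7.52 and 21.1 CPM in the same order. Chrng, the fetal gamma subunit, was at 0.0590, 1.45, 0.429 and 1.52 CPM, with so few counts in the lean GRf/f library that no fold is given. The list median by genotype was 0.79 in lean mice and 1.02 in ob/ob mice, beside 0.05 and -0.04 over all genes. In ob/ob against lean muscle, 7 of the 8 genes were also higher in each genotype, with medians of 0.50 in GRf/f and 0.48 in GRmKO mice. The medians over all genes were -0.11 and -0.21 there. Actc1, in contrast, was lower in ob/ob than in lean GRf/f muscle. The part of the denervation list in the values of Actc1 and Myl4 was not tested. Of 12 regeneration and myogenic genes, 11 could be tested and 2, Myog and the fusion factor Mymk, were at least 2-fold higher in GRmKO muscle of each background. The shares of all genes were again 4.13% in lean and 4.05% in ob/ob mice. Mymk was at 0.482, 4.32, 1.62 and 5.25 CPM.

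Slow fiber genes were higher in ob/ob than in lean muscle of the same genotype, as were the stress genes. All 9 on the list were higher in ob/ob muscle in GRf/f and in GRmKO mice, 5 and 6 of them at least 2-fold, with medians of 1.29 and 1.29. Over all genes, 3.4% and 3.41% were at least 2-fold higher, and the medians were -0.11 and -0.21. The list summed to 581 CPM in the lean GRf/f library, 734 CPM in the lean GRmKO library, 1239 CPM in the ob/ob GRf/f library and 1679 CPM in the ob/ob GRmKO library. Its leading gene Myh7, the slow myosin heavy chain, was at 63.0, 84.7, 275 and 418 CPM in that order. By genotype, 8 of the 9 were higher in GRmKO muscle of lean mice and 7 in that of ob/ob mice, with medians of 0.43 and 0.50. Of the other 2 in ob/ob mice, Myoz2 was lower in GRmKO muscle, as were Csrp3 and Ankrd2. Myoz2 was at 152 CPM in the ob/ob GRf/f library and 125 CPM in the ob/ob GRmKO library. Myl2 was nearly level, at 199 and 197 CPM, with overlapping counting intervals. The 11 adult fast sarcomere genes had medians of -0.18 and -0.10 in ob/ob against lean muscle of GRf/f and GRmKO mice, and 0 of them were 2-fold different in any comparison. Whether fiber type has a part in the values of Ankrd2, Csrp3 and Xirp1 was not tested.

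**Figure D4:**
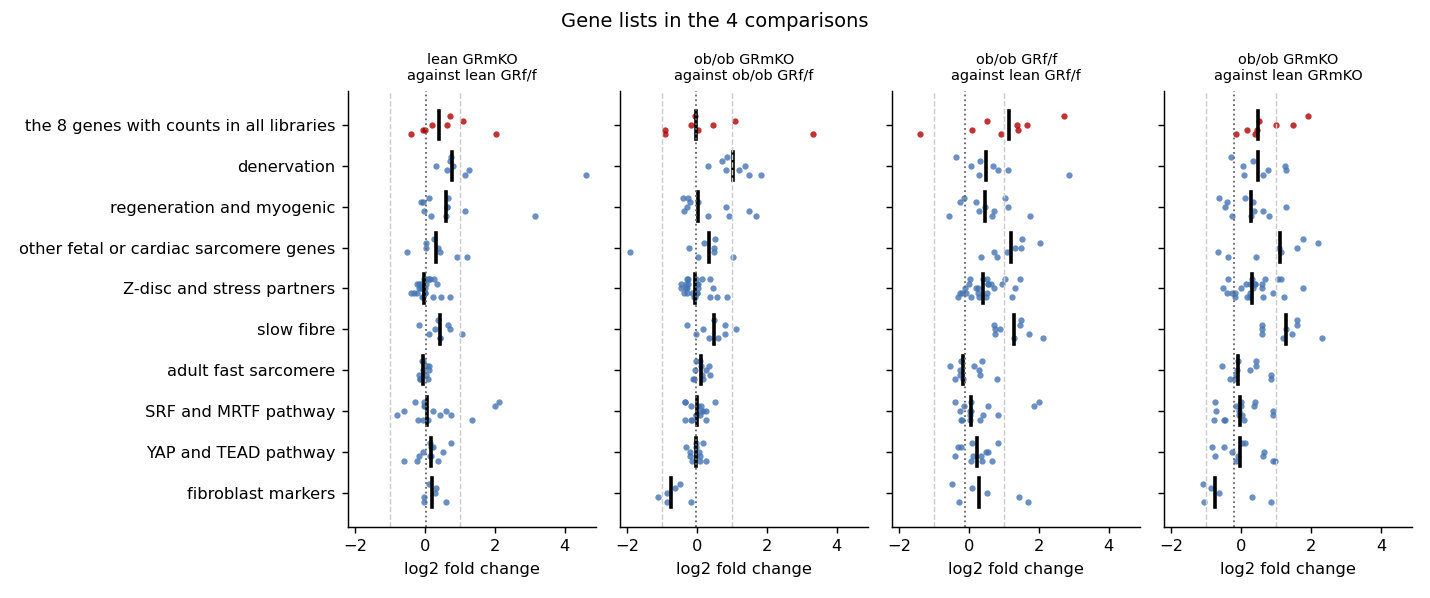
Log2 fold changes of the genes in each list (points, 1 per gene with counts in all 4 libraries) in the 4 comparisons, the 8 counted genes of the main list in red. Black bars are list medians, the dotted line the median of all 14206 genes, and dashed lines 2-fold. The medians of most lists, that of the main list included, lie right of the median gene in all 4 comparisons, some by little. The exceptions are the Z-disc and stress partners, the adult fast sarcomere genes and the fibroblast markers.

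All 25 Z-disc and stress partners had counts in every library. In ob/ob muscle 4 of them, Ttn, Flnc, Fhl1 and Actn2, were at least 2-fold higher in GRf/f and in GRmKO mice. None was at least 2-fold lower. Of all genes, 3.4% and 3.41% were at least 2-fold higher, and 6.98% and 10.8% at least 2-fold lower. Ttn, the elastic filament to which Ankrd1 and Ankrd2 bind, was higher by 1.31 and 1.76 on the log2 scale, and Fhl1, like Csrp3 a LIM-domain protein, by 1.45 and 1.05. The list medians were 0.40 and 0.31 in these comparisons and -0.02 and -0.07 by genotype, where 0 members reached 2-fold. Ankrd23, the third ankyrin-repeat protein of the Ankrd1 and Ankrd2 family, behaved differently from both, with 1637 CPM in the lean GRf/f library, 2274 CPM in the lean GRmKO library, 1710 CPM in the ob/ob GRf/f library and 2557 CPM in the ob/ob GRmKO library. Both GRmKO libraries were thus higher. Xirp2, the relative of Xirp1, was at 969, 954, 1392 and 1538 CPM and, like Xirp1, was higher in both ob/ob libraries.

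Of 13 other fetal or cardiac sarcomere genes, 8 could be tested. In ob/ob muscle 5 of them, Tnni1, Myh6, Myh7b, Casq2 and Lmod2, were at least 2-fold higher in each genotype, with list medians of 1.20 and 1.11. The shares of all genes were 3.4% in GRf/f and 3.41% in GRmKO mice. Tnni1 is also on the slow fiber list. Counts were few in the lean GRf/f and lean GRmKO libraries for Myh6 (11.5 and 11.2) and Myh7b (19.1 and 22.0). By genotype the medians were 0.33 and 0.34, and 1 gene was at least 2-fold higher in lean mice, Mybph, a thick filament binding protein at 313 CPM in the lean GRf/f library and 721 CPM in the lean GRmKO library, and 549 and 560 CPM in the ob/ob libraries. In ob/ob mice 1 gene, the fetal and cardiac troponin Tnnt2, was higher at 1.20 and 2.44 CPM, and 1 was lower, the cardiac troponin Tnni3 at 0.239 and 0.0639 CPM, few counts in each. Of all genes, 4.13% were at least 2-fold higher between the lean genotypes. Between the ob/ob genotypes 4.05% were at least 2-fold higher and 4.99% lower.

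The single high library of Csrp3 and Ankrd2, ob/ob GRf/f, was also the one in which collagen messages were highest. Of 6 fibroblast markers, all detected, the summed level was 5258 CPM in the lean GRf/f library, 5678 CPM in the lean GRmKO library, 10397 CPM in the ob/ob GRf/f library and 5615 CPM in the ob/ob GRmKO library. The collagens carried this peak. Col1a1 was at 1279, 1264, 4108 and 2277 CPM, and Col1a2 at 1269, 1251, 3411 and 1565 CPM. Dcn, at 1247, 1343, 882 and 634 CPM, Lum, at 87.1, 133, 70.9 and 63.0 CPM, and Pdgfra, at 68.3, 84.7, 72.3 and 46.7 CPM, were highest in the lean GRmKO library instead. All 6 markers were lower in GRmKO than in GRf/f muscle of ob/ob mice, 1 of them at least 2-fold, against 4.99% of all genes. Their part in the values of Csrp3 and Ankrd2 was not tested. The summed markers of the other cell types did not peak in that library, but some moved with other values. Of the adipocyte markers Lep alone peaked there, at 14.1, 5.89, 69.6 and 42.1 CPM in the same order of libraries. The 6 adipocyte markers summed to 925 CPM in the lean GRf/f library, 618 CPM in the lean GRmKO library, 522 CPM in the ob/ob GRf/f library and 336 CPM in the ob/ob GRmKO library, and all 6 were lower in GRmKO muscle of lean and of ob/ob mice, with medians of -0.80 and -0.71, where Actc1 and Myl4 were higher. The 5 erythroid markers summed to 2228, 2126, 970 and 872 CPM in the same order, and all 5 were at least 2-fold lower in ob/ob muscle of either genotype, where the stress and slow fiber genes were higher. Of all genes, 6.98% in GRf/f and 10.8% in GRmKO mice were at least 2-fold lower there. The 8 macrophage and leukocyte markers summed to 395, 507, 251 and 184 CPM and the 5 endothelial markers to 447, 524, 356 and 317 CPM. Their part in the values of the 9 genes was not tested.

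The pathways tied to the promoter motifs were read next. Of 17 genes of the serum response factor and MRTF pathway, 16 could be tested, with medians of 0.05 in lean mice and 0.01 in ob/ob mice by genotype and 0.05 and -0.03 by obesity. At least 2-fold higher were 3 of them, Egr1, Fos and Junb, between the lean genotypes and 2, Egr1 and Fos, between ob/ob and lean GRf/f mice, with 0 in the other comparisons and 0 at least 2-fold lower in any of the 4. Of all genes, 4.13% were at least 2-fold higher between the lean genotypes and 3.4% between ob/ob and lean GRf/f mice. Srf itself was at 103 CPM in the lean GRf/f library, 89.9 CPM in the lean GRmKO library, 105 CPM in the ob/ob GRf/f library and 95.7 CPM in the ob/ob GRmKO library. Of 12 genes of the YAP and TEAD pathway, 0 were 2-fold different in any of the 4 comparisons, and the medians were 0.17 and -0.03 by genotype and 0.23 and -0.03 by obesity. Its transcription factor Tead1 was at 135, 129, 196 and 202 CPM in the same order, higher in both ob/ob libraries, as was Ankrd1, and by less than 2-fold.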

How the data were processed

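Gastrocnemius RNA of 3 mice per group was sequenced as 1 pooled library for each of 4 groups. The authors deposited expected counts per gene name, made with Salmon 1.2.1 on protein-coding GENCODE transcripts (mm10) and tximport (lengthScaledTPM, R 3.5.0). Library strand is not given in the sources used here. CPM was computed from these counts over all 22252 gene names, and log2 ratios of CPM without a pseudocount. The 95% intervals (scipy 1.17.1, rounded counts) were Wilson for levels and shares and exact for ratios, which were tested on simulated data, and for a difference of ratios came from the Poisson variance of the 4 counts. Levels per length used the listed transcript. A gene was counted as higher or lower at 2-fold. The simulated replicates of the study's NOISeq method were not used. Coordinates are from GENCODE M21. The genes, lists and alternatives were chosen with earlier results of these data known. In each list up to 4 genes of largest change were named, with relatives of the 9 genes, and Des, Srf and Tead1 were added after their values were seen. Alternatives took scaling factors from edgeR 4.0.16 and DESeq2 1.42.0.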

Additional observations from a re-analysis of the deposited data

Results flagged for a closer look

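The genotype difference took opposite signs in lean and ob/ob mice for 3 of the 9 genes, Acta1, Xirp1 and Myh3, with counting intervals that exclude 0 on each side for Acta1 and Xirp1. For Acta1 the log2 fold change of GRmKO against GRf/f was 0.02 in ob/ob mice and -0.05 in lean mice. For Xirp1 it was -0.17 in ob/ob mice and 0.20 in lean mice. For Myh3 it was 1.87 in lean mice. In ob/ob mice the GRf/f library was 47.3-fold above the floor of 3 counts in the GRmKO library, which had 0 counts. Myh3 also took opposite signs by obesity, with a log2 fold change of 2.67 for ob/ob against lean GRf/f. The lean GRmKO library was 27.1-fold above that floor in the ob/ob GRmKO library. The counting error of the higher library is left out of both ratios, and the division of reads among the myosin heavy chains is uncertain. Each side rests on 1 library per group, so the difference was not tested against the spread between mice.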

How the results depend on the processing

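No paired analysis was possible because each group has 1 library of pooled RNA. For the same reason no library was left out. The intervals cover counting error, so a difference within the unmeasured spread between pools cannot be recognized, and a count of 0 allows a level of up to 0.151 CPM.

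In 7 settings of scaling or pseudocount, 231 of 238 log2 fold changes of the 9 genes kept their sign and 228 kept their side of 2-fold. The signs that turned were those of Actc1 between ob/ob GRmKO and lean GRmKO and of Csrp3 between the lean genotypes. In the order ob/ob against lean GRf/f, ob/ob against lean GRmKO, lean genotypes and ob/ob genotypes, Actc1 (main values -1.41, -0.14, 2.04 and 3.32) was at -1.31, 0.066, 1.99 and 3.36 with TMM and at -1.30, 0.076, 1.996 and 3.37 with DESeq2 factors. The upper quartile gave -1.34, 0.0029 and 3.36 in the first, second and last of these. Without the 50 most abundant genes the second and last were -0.058 and 3.36, and unscaled counts gave -0.064 and 1.98 in the second and in the lean genotypes. Summed with Acta1 as 1 feature, the pair gave 0.065, 0.14, 0.039 and 0.11, by construction dominated by Acta1, so that the first reversed. Of the 8 counted genes, at a minimum of 4-fold, 1 was higher and 0 lower between ob/ob and lean GRf/f, 0 were higher between ob/ob and lean GRmKO, and 1 was higher in each genotype comparison. At least 1.5-fold, 4 were higher between the lean genotypes and 2 lower between the ob/ob genotypes. With 1 CPM added, 1 was higher in each genotype comparison. Without the filter on low counts, Myh3 added 1 lower gene in both comparisons that use the ob/ob GRmKO library and 1 higher gene in each of the others, giving 5 higher between ob/ob and lean GRf/f and 3 between the lean genotypes. As a share of all 6 actins, Actc1 was 1.94%, 7.79% and 6.50% in the lean GRf/f, lean GRmKO and ob/ob GRmKO libraries. The share of all genes at least 2-fold higher in ob/ob than in lean GRmKO muscle was 3.41%, and 5.19% with TMM or 5.29% with DESeq2 factors, and the share lower was 10.8%, 7.03% and 6.93%. The cause of these shifts was not tested. Replacing the listed transcript by the longest one changed levels per length and no fold change.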

Other observations

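Immediate early genes, which serum response factor also drives, were lowest in the lean GRf/f library. Egr1 was at 15.1 CPM there, 61.2 CPM in the lean GRmKO library, 54.4 CPM in the ob/ob GRf/f library and 55.6 CPM in the ob/ob GRmKO library. Fos was at 11.3, 49.3, 45.4 and 65.0 CPM in the same order. Junb was at 24.0, 60.6, 29.7 and 35.4 CPM, so that the lean GRmKO library alone stood out.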
